A study of Mus musculus with 6 samples.

Results

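The Siglec genes examined were *Siglech*, *Siglece*, *Siglecf*, *Siglec1*, *Cd33* and *Cd22*, 6 of the 32285 genes counted, chosen by symbol and followed through every library. They were measured by 10x Genomics 3′ single-cell RNA-seq in live CD45+/CD11b+ myeloid cells sorted from whole brains of 3 male C57BL/6J mice at 89 days of age, all dissociated by cold Dounce homogenization. Mouse 2 was processed with a cocktail of transcriptional and translational inhibitors (DNC-INHIB), and mice 1 and 3 without it (DNC-NONE). Each brain supplied 1 V3.0 and 1 V3.1 library, 6 in all, so the inhibitor group is a single animal and both kits sampled the same animals. All animals were wild type.

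Siglecs are cell-surface lectins that bind sialic acid, the sugar that caps many glycans on a cell's own proteins and lipids. Most of them, including Siglec-E, Siglec-F and CD22, carry tyrosine motifs in the cytoplasmic tail that recruit the phosphatases SHP-1 and SHP-2 and dampen activating receptors. Siglec-H has no such motif and pairs with the adaptor DAP12 (*Tyrobp*), and Siglec-1 (sialoadhesin, CD169) has a short tail and acts mainly in adhesion. In the mouse, *Siglech* marks microglia and plasmacytoid dendritic cells, *Siglec1* marks macrophages at tissue borders and responds to type I interferon, *Siglece* is found on neutrophils and macrophages, *Siglecf* on eosinophils and alveolar macrophages, and *Cd22* on B cells. Human *CD33* is a risk locus for Alzheimer's disease.

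On GRCm38, 5 of the 6 genes lie on chromosome 7: *Cd22* (30865402 to 30880342, minus strand), *Siglecf* (43351341 to 43359531, plus), *Cd33* (43524216 to 43544428, minus), *Siglece* (43651070 to 43660161, minus) and *Siglech* (55768178 to 55778925, plus). *Siglec1* lies on chromosome 2 (131069220 to 131086765, minus). No annotated gene overlaps them except Gm29439, antisense to *Cd22*, and the sources used here do not say whether counting used strand. RefSeq promoters were matched for 5 genes. The 250 bases before the RefSeq start, which can differ from the end of the gene given above, are shown for *Cd33* and *Siglecf*, genes of 1 cluster on chromosome 7 that stood at 489 and 16.8 CPM in microglia (UMIs of a gene over all UMIs of the summed cells, on the counts-per-million scale), with the 16 bases they share in capitals, for *Siglece*, with each GAGGAA (the core bound by the myeloid factor PU.1) or its complement TTCCTC in capitals, and for *Siglech*, which holds neither and has no capitals.
Cd33 (chr7:43533172-43533421, minus): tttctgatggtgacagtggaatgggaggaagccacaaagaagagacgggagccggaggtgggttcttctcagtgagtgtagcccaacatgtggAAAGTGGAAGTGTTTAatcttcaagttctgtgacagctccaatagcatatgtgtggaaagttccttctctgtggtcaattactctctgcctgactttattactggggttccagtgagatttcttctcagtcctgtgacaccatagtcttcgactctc
Siglecf (chr7:43351091-43351340, plus): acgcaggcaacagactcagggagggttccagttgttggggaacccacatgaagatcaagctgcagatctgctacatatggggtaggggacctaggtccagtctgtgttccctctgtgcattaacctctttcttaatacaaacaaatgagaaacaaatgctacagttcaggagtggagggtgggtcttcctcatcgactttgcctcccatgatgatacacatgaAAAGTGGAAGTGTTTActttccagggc
Siglece (chr7:43660162-43660411, minus): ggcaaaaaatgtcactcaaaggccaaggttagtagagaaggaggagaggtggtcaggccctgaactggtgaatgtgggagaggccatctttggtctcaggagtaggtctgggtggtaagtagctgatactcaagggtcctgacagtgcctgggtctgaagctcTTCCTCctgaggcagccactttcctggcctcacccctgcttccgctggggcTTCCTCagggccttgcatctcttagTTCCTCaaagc
Siglech (chr7:55767934-55768183, plus): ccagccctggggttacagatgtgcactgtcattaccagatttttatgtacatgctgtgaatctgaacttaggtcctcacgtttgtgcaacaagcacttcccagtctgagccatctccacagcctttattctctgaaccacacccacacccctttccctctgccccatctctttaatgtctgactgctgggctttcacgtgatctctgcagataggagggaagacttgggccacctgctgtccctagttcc
The shared run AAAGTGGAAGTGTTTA begins 157 bases before the start of *Cd33* and 27 bases before that of *Siglecf*, and on either strand it occurred in 2 of 32851 promoters of this length, these same genes. It was the only identical run of at least 12 bases, read on the gene's own strand, between any pair of the 5 promoters. GAGGAA, searched on both strands, occurred in 23.3% of all promoters, 3 times in *Siglece*, 1 time each in *Cd33* and *Siglecf*, and in neither *Siglech* nor *Cd22*.

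Of 29412 barcodes, 19725 passed the cell filters. Gating on marker UMIs found 18806 microglia, 30 border macrophages and 312 neutrophils. Per library these were 902 to 4478 microglia, 2 to 12 border macrophages and 23 to 63 neutrophils. The gate fixed the levels of its own markers. Of the genes outside it, *Sall1*, a microglial transcription factor, stood at 426 CPM in microglia, 0 in border macrophages and 26.4 in neutrophils. The V3.0 library of mouse 3 stood apart, with 21.5% of barcodes passing against 70.0% to 76.8% in the others, and 196 barcodes occurred in more than 1 library. UMIs are counted at the 3′ end, 1 per captured molecule, so levels were compared between genes without a length correction, although capture can differ between transcripts.

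In microglia, 2 of the 6 genes made up nearly all Siglec transcripts. *Siglech* took 72.3% and *Cd33* 23.7% of 141095 Siglec UMIs, followed by *Siglece* (2.88%), *Siglecf* (0.816%), *Cd22* (0.286%) and *Siglec1* (0.0298%, 42 UMIs in 40 of 18806 cells). *Siglech* stood at 1337, 1245 and 1363 CPM in the V3.0 libraries of mice 1, 2 and 3 and at 1580, 1565 and 1764 CPM in the V3.1 libraries, on average 1475 ± 193 CPM (SD, n = 6 libraries). *Cd33* stood at 494, 414 and 487 CPM with V3.0 and at 526, 452 and 563 CPM with V3.1, on average 489 ± 52.6 CPM (SD, n = 6). The mouse with inhibitors gave the lowest *Cd33* library of each kit. *Siglece* averaged 59.7 ± 2.08 CPM (SD, n = 6), the steadiest of the genes with a coefficient of variation of 3.49%, *Siglecf* averaged 16.8 ± 1.28 CPM, *Cd22* averaged 6.17 ± 1.03 CPM and *Siglec1* averaged 0.594 ± 0.249 CPM (all SD, n = 6). The order *Siglech*, *Cd33*, *Siglece*, *Siglecf*, *Cd22*, *Siglec1* was the same in every library, and no ranges of neighbours in that order overlapped.

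**Figure D1:**
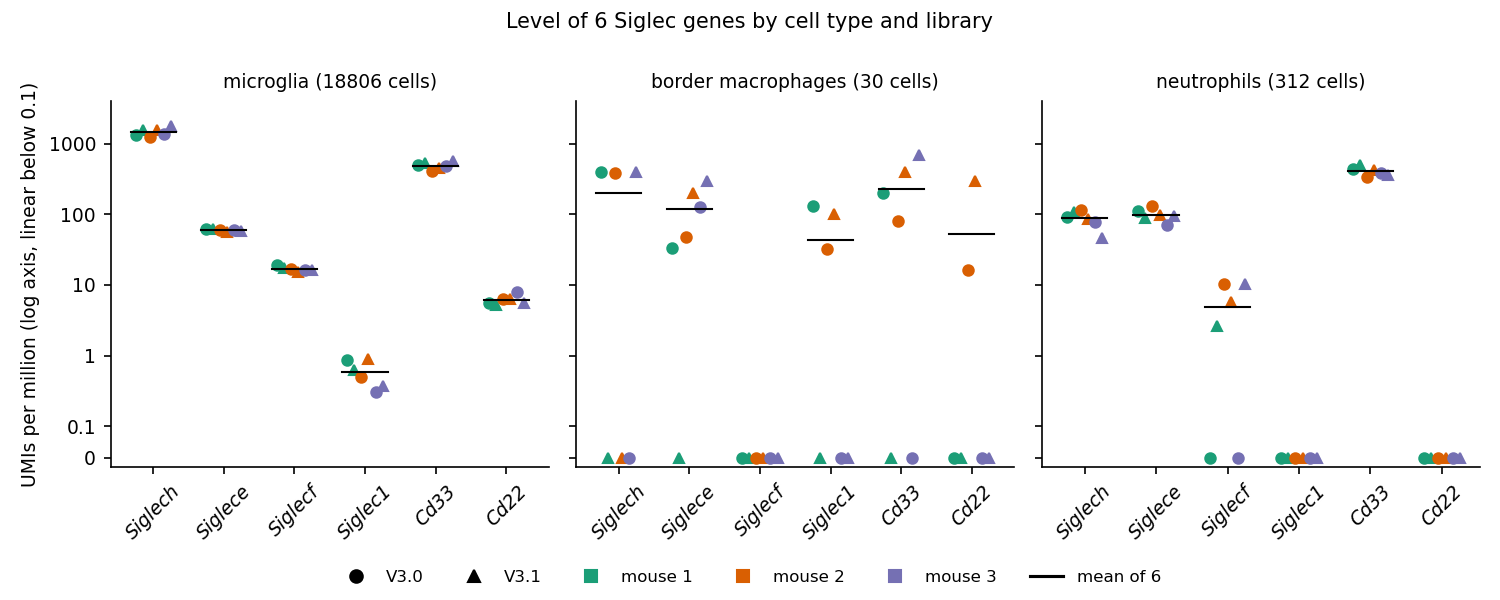
Level of the 6 genes in CPM (log axis, linear below 0.1) in microglia, border macrophages and neutrophils. Each point is a library, coloured by mouse, with circles for V3.0 and triangles for V3.1, and the bar is the mean of the 6 libraries. In microglia *Siglech* lies between 1245 and 1764 and the 6 genes form separate bands. In border macrophages, of which a library holds 2 to 12, several points lie at 0.

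Among single microglia thinned to 2000 UMIs (18070 cells), *Siglech* had a mean of 3.01 UMIs and a median of 3, and 8.02% of cells had none. *Cd33* had a mean of 0.991 UMIs, and 39.5% of cells had none. The variance of *Siglech* was 1.42 times its mean and that of *Cd33* 1.15 times, where sampling from cells of equal content would give about 1. The lowest library stood at 1.27 for *Siglech* and at 1.11 for *Cd33*. Most microglia showed 2 of the 6 genes (53.2%) or 1 (35.2%) at this depth, 8.56% showed 3, 45 cells showed 4, 1 cell showed 5, and 2.86% showed none. These shares are set by depth as well as by the cells and give a description only.

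**Figure D2:**
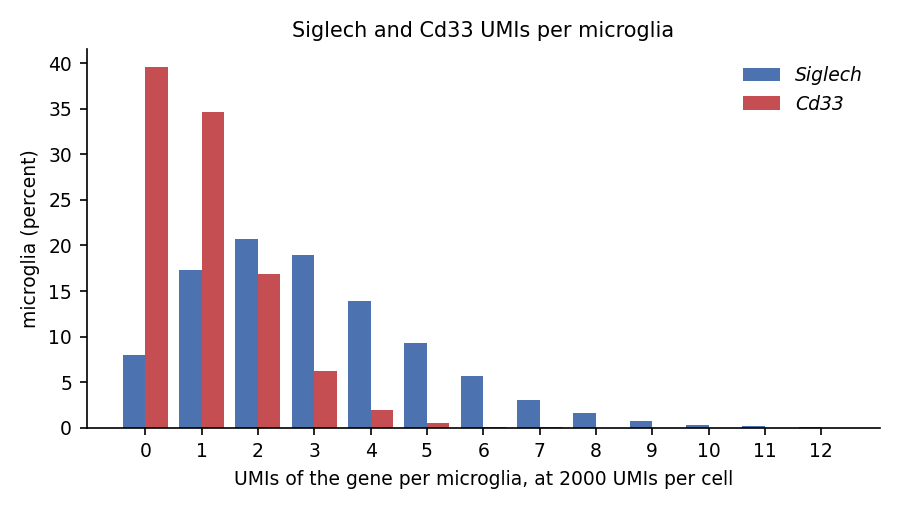
Percent of 18070 microglia with a given number of *Siglech* (blue) and *Cd33* (red) UMIs after thinning to 2000 UMIs per cell, shown up to 12 UMIs. *Siglech* has a single mode at 2 UMIs (20.7% of cells) with 8.02% at 0, and *Cd33* falls from 39.5% at 0.

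Neutrophils had a different composition. *Cd33* took 68.0% of their 1146 Siglec UMIs and *Siglece* 16.8%. *Cd33* stood at 433, 337 and 382 CPM in the V3.0 libraries of mice 1, 2 and 3 and at 495, 423 and 361 CPM with V3.1, a range that overlapped the microglial one. *Siglece* stood at 113, 132 and 69.5 CPM with V3.0 and at 89, 96.5 and 93.5 CPM with V3.1, above the microglial range of 56.2 to 61.6 CPM in each of the 6 libraries. A *Siglece* UMI was present in 43.9% of neutrophils (137 of 312, exact 95% interval 38.3% to 49.6%) and in 18.6% of microglia, at median depths of 5627 and 3517 UMIs per cell. After thinning to 2000 UMIs these shares were 17.6% and 11.3%. *Cd33* was detected in 84.3% of neutrophils and 78.3% of microglia as counted but in 56.7% and 60.5% after thinning, so the shares give no order. Both *Siglec1* and *Cd22* had no UMI in 312 neutrophils, and 3 such cells would be 0.962% (exact 95% upper bound 1.18%), a limit on cells with a UMI and not on cells that express the gene.

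In the fit of the 9 sums per mouse and type, 3 of the 5 genes tested passed in neutrophils against microglia (edgeR quasi-likelihood test). A gene counts as called throughout where its Benjamini-Hochberg adjusted p is under 0.05 and its log2 fold change exceeds 0.58 in either direction. 2 were higher, where 29.5% of all 8336 genes were called higher, and 1 was lower, where 32.4% were called lower, and *Cd22* was too sparse to be tested. *Siglece* was 4.60-fold higher (SE 0.17 on the log2 scale, edgeR adjusted p = 9.48e-36), *Cd33* was 2.23-fold higher (log2 fold change 1.16 ± 0.17 SE, adjusted p = 2.34e-11), and *Siglech* was lower (log2 fold change −2.71 ± 0.20 SE, adjusted p = 4.57e-39). The direction for *Cd33* flipped with the normalization: with the sums scaled to their totals only, its log2 fold change was −0.30 (adjusted p = 0.0044), and that of *Siglece* stayed positive at 0.74 or above under every alternative tried. *S100a8* and *S100a9* took 36.1% to 38.5% of neutrophil UMIs in the 3 mice against under 0.1% of microglial UMIs, and this scaling lowered the median of all genes by 1.46 on the log2 scale. Counted per cell, neutrophils held 2.46 ± 0.32 *Cd33* UMIs and microglia 1.80 ± 0.24 (SD, n = 3 mice), and *Siglece* stood at 0.610 ± 0.071 and 0.216 ± 0.011 UMIs per cell. *Siglecf* had 10 UMIs in neutrophils and did not pass (log2 fold change −0.24 ± 0.53 SE, adjusted p = 0.71), but was lower with the sums scaled to their totals only (log2 fold change −1.69, adjusted p = 0.00029).

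*Siglech* in neutrophils lay near the level of other microglial RNA. It stood at 99.5, 98.4 and 54.0 CPM in mice 1, 2 and 3, and over all cells at 87.1 CPM, 5.83% of its microglial level, where the 6 microglial gate genes summed to 5.56% of theirs and *Sall1*, *Slc2a5*, *Crybb1*, *Golm1* and *Ecscr*, microglial genes outside the gate, stood at 4.30% to 7.53%. In 179 neutrophils with no UMI of the microglial gate genes *Siglech* had 3 UMIs (2.71 CPM), and in the 133 with such a UMI it stood at 206 CPM. *Cd33* stood at 413 and 409 CPM and *Siglece* at 103 and 99.1 CPM in the same sets of cells, a split chosen after these values were seen. In 73 gated monocytes, at a median of 8484 UMIs per cell, *Siglech* stood at 11.7 CPM. The part of microglial RNA in the neutrophil *Siglech* was not tested further.

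**Figure D3:**
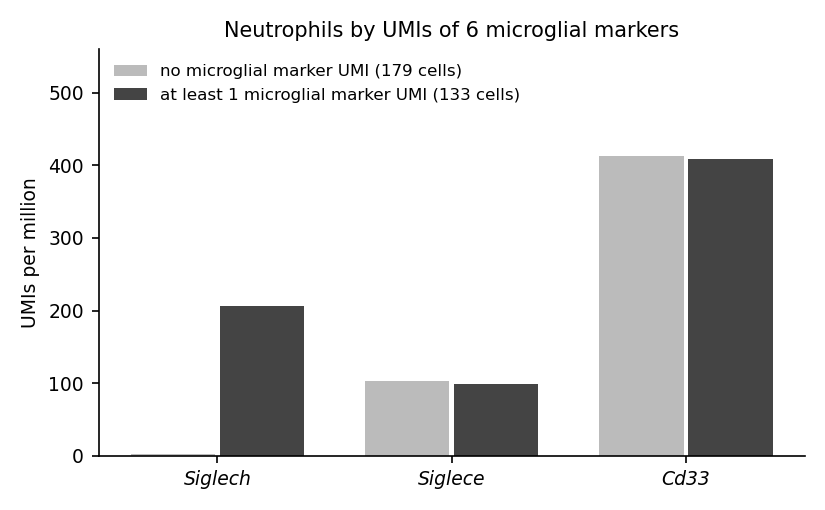
Level of *Siglech*, *Siglece* and *Cd33* in CPM in neutrophils without (light, 179 cells) and with (dark, 133 cells) a UMI of the 6 microglial gate genes, each bar a sum over all libraries with no error drawn. *Siglech* stands at 2.71 and 206, and *Cd33* at 413 and 409.

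Border macrophages, the perivascular and meningeal macrophages marked by *Mrc1*, *Pf4* and *Cd163*, held the highest share of *Siglec1* among the 3 types, 8.43% of their 83 Siglec UMIs against 0.0298% in microglia and 0 UMIs in neutrophils. *Siglec1* stood at 92.5, 41.7 and 0 CPM in mice 1, 2 and 3, from 7 UMIs in 5 of 30 cells (16.7%, exact 95% interval 5.64% to 34.7%), against 0.359 to 0.761 CPM in the microglia of the same mice. The border macrophages of mouse 3, 5 cells, had no *Siglec1* UMI, so the groups overlapped there. *Siglech* stood at 278, 334 and 223 CPM, below the microglial 1441, 1392 and 1698 CPM in each mouse. *Cd33* stood at 139, 125 and 391 CPM, also below its 508, 432 and 550 CPM in microglia. *Siglece* varied from 23.1 to 223 CPM on 10 UMIs, *Siglecf* had no UMI, and *Cd22* had 4 UMIs in 3 cells, all of mouse 2.

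Against microglia, 3 of the 5 genes tested passed, 1 higher (5.4% of all genes were called higher) and 2 lower (5.06% were called lower). *Siglec1* was higher (log2 fold change 6.39 ± 1.21 SE, edgeR adjusted p = 3.83e-06), 85.4 times the microglial CPM over all cells. It passed the filter on low counts only through the border macrophage sums of mice 1 and 2, where it is high, so its place among the genes that passed is no support. With every gene tested it had an adjusted p of 0.00012. *Siglech* was lower (log2 fold change −2.25 ± 0.28 SE, adjusted p = 5.40e-14), as was *Cd33* (log2 fold change −1.42 ± 0.34 SE, adjusted p = 0.00057). *Siglec1* was too sparse to be tested without mouse 1, which held 4 of its 7 UMIs, or without mouse 2, which held the other 3, and without mouse 1 *Cd33* had an edgeR adjusted p of 0.070, so that *Siglech* alone passed. *Siglecf* gave no fold, since the limit that a count of 0 allows, 22.5 CPM for these 30 cells, lay above its microglial level. *Siglece* did not differ detectably at this depth (log2 fold change 0.45, 95% interval −0.59 to 1.49).

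Against neutrophils, border macrophages were higher in 1 of 5 genes tested (9.91% of all genes called higher) and lower in 2 (20.5% called lower). *Siglec1* was higher (edgeR adjusted p = 0.00065), at least 33.2-fold against the limit of 3 UMIs over all neutrophils. It again passed the filter only through the border macrophage sums (adjusted p = 0.0057 with every gene tested), and could be tested neither without mouse 1 nor without mouse 2. *Cd33* was lower (log2 fold change −2.58 ± 0.32 SE, adjusted p = 3.29e-14), and so was *Siglece* (log2 fold change −1.75 ± 0.44 SE, adjusted p = 0.00048). *Siglece* no longer passed with the sums scaled to their totals only (log2 fold change −0.42, adjusted p = 0.55) or without mouse 1 (adjusted p = 0.060). *Siglech* did not pass (log2 fold change 0.46 ± 0.34 SE, adjusted p = 0.33) but was higher when scaled to the totals only (log2 fold change 1.81, adjusted p = 3.58e-06).

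Genes on the marker lists of other cells were present in the border macrophages. The 6 microglial gate genes summed to 786, 1015 and 447 CPM in mice 1, 2 and 3, 6.94% of the microglial level over all cells, a share that the gate itself limits, and *Siglech* stood at 20.1% of its microglial level. Of the 6 microglial genes outside the gate, *Sall1*, *Slc2a5*, *Crybb1*, *Golm1* and *Ecscr* stood at 0% to 9.74% of theirs. In the 8 border macrophages with at most 1 UMI of the microglial gate genes *Cd33* had no UMI and *Siglech* stood at 168 CPM, on 5 UMIs, and in the other 22 they stood at 213 and 339 CPM, a split chosen after these values were seen. The 10 neutrophil gate genes summed to 447 to 671 CPM there and to 751 to 1157 CPM in microglia, and *Ly6g* was at 0 in border macrophages. The 6 monocyte gate genes summed to 447 to 879 CPM in border macrophages and to 11.5 to 17.3 CPM in microglia. Nearly all of that sum in border macrophages was *F13a1*, with 84 UMIs (631 CPM) in 23 of 30 cells. *Ccr2* had 1 UMI there, and *Ly6c2*, *Plac8*, *Chil3* and *Vcan* had 0. The part of monocyte RNA in these results was not tested. In microglia the border macrophage markers summed to 4.97 to 8.94 CPM, and 3 of the 40 microglia with a *Siglec1* UMI held a border macrophage marker. These 3 lay outside the interferon gate described below. Such a marker was held by 1.81% of the 18559 microglia outside that gate and by 1.62% of the 247 inside it. The part of border macrophage RNA in microglial *Siglec1* was not tested.

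**Figure D4:**
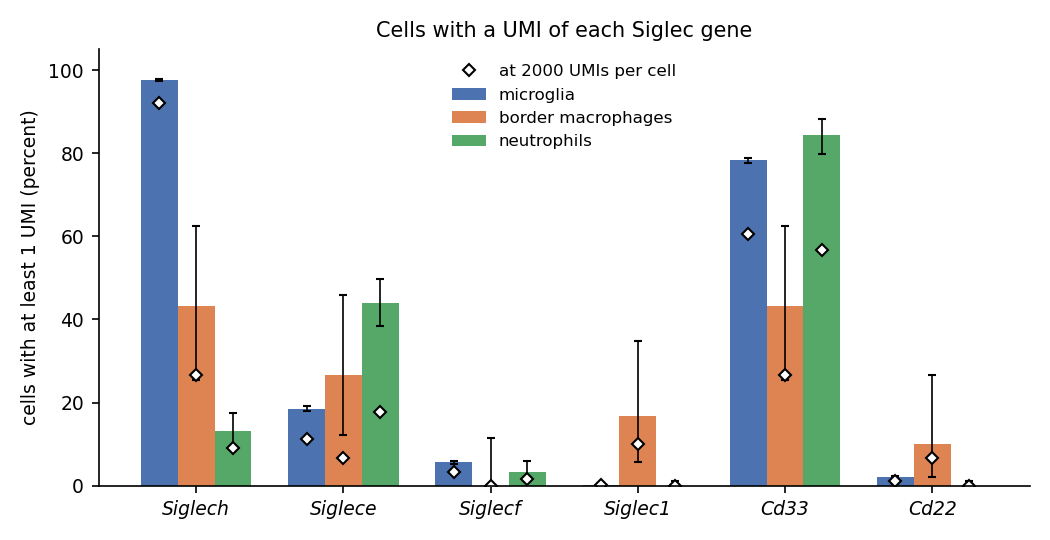
Percent of cells with at least 1 UMI of each gene in microglia (18806 cells), border macrophages (30) and neutrophils (312) over all libraries, with exact 95% binomial intervals that cover counting error only. Diamonds give the percent after thinning each cell to 2000 UMIs. *Siglech* was present in 97.6% of microglia, 43.3% of border macrophages and 13.1% of neutrophils, and *Siglec1* in 16.7% of border macrophages and 0.213% of microglia.

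A small set of microglia carried interferon-response transcripts, and *Siglec1* was the 1 Siglec gene called in them. The 247 interferon-gated microglia (at least 3 of 9 genes such as *Ifit3* and *Isg15*) came from mice 1, 2 and 3 as 68, 114 and 65 cells and had a median of 3560 UMIs per cell against 3516 in the other 18559. *Siglec1* stood at 11.2, 11.3 and 8.26 CPM in them, on 3, 5 and 2 UMIs, against 0.635, 0.501 and 0.260 CPM in the other microglia of the same mice, with no overlap. It was present in 3.64% of interferon-gated cells (9 of 247) and 0.167% of the others. Of the 6 genes tested 1 passed, in the higher direction, where 2.25% of all genes were called higher and 0.344% lower: *Siglec1* (log2 fold change 4.47 ± 1.04 SE, edgeR adjusted p = 0.00077), 22.1 times the CPM of the other microglia. It passed the filter on low counts only through the interferon-gated sums, where it is high, and with every gene tested its adjusted p was 0.00067. With 10 UMIs in all, the call was lost when any 1 mouse was left out, with adjusted p = 0.15 without mouse 1, 0.32 without mouse 2 and 0.062 without mouse 3, while the log2 fold change kept between 4.35 and 4.65. None of the 9 interferon-gated cells with *Siglec1* held a UMI of a border macrophage marker. Only 4 of all 247 such cells did (1.62%), so a count of 0 among 9 cells decides nothing.

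None of the other members was called. *Siglech* stood at 1316, 1276 and 1412 CPM in interferon-gated microglia and at 1442, 1394 and 1701 CPM in the others, lower in each mouse (log2 fold change −0.14 ± 0.05 SE, edgeR adjusted p = 0.17). *Cd33* stood at 456, 358 and 462 CPM against 508, 433 and 551 CPM (log2 fold change −0.20 ± 0.08 SE, adjusted p = 0.22), also lower in 3 of 3 mice. Both were under the fold threshold and missed on adjusted p. *Cd22* (10 UMIs), *Siglece* and *Siglecf* (15 UMIs) had adjusted p-values of 0.67, 0.95 and 0.98.

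The libraries of each mouse allow a comparison of the 2 kit versions. In microglia none of the 5 Siglec genes tested was called between V3.1 and V3.0 by edgeR (1.58% of 12016 genes were called higher with V3.1 and 1.49% lower) or by DESeq2, and 1 had an unadjusted p below 0.05. That gene was *Siglech*, higher with V3.1 in 3 of 3 mice, by 1.18, 1.26 and 1.29 times. Its V3.0 libraries averaged 1315 ± 62.0 CPM and its V3.1 libraries 1636 ± 111 CPM (SD, n = 3 each), without overlap (log2 fold change 0.33 ± 0.07 SE, edgeR adjusted p = 0.0090). The difference passed on p but stayed under the fold threshold. With the mouse as a block it had an adjusted p of 4.52e-05, and without mouse 2 of 0.088. *Cd33* was also higher with V3.1 in 3 of 3 mice, by 1.06, 1.09 and 1.16 times (log2 fold change 0.16 ± 0.09 SE, adjusted p = 0.24, or 0.024 with the mouse as a block), and its kit ranges overlapped. The block raised the number of all genes called from 369 to 587.

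The less abundant genes showed no such shift. *Siglece* had V3.1 to V3.0 ratios of 1.00, 0.936 and 0.967 in mice 1, 2 and 3, with a 95% interval of the log2 fold change of −0.18 to 0.12. *Siglecf* had ratios of 0.905, 0.886 and 1.01 and *Cd22* of 0.954, 0.988 and 0.699, with edgeR adjusted p-values of 0.54 and 0.73. *Siglec1*, at 0.311 to 0.905 CPM, was too sparse to be tested. Without the V3.0 library of mouse 3 the log2 fold change of *Siglech* was 0.36 and that of *Cd33* 0.19.

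**Figure D5:**
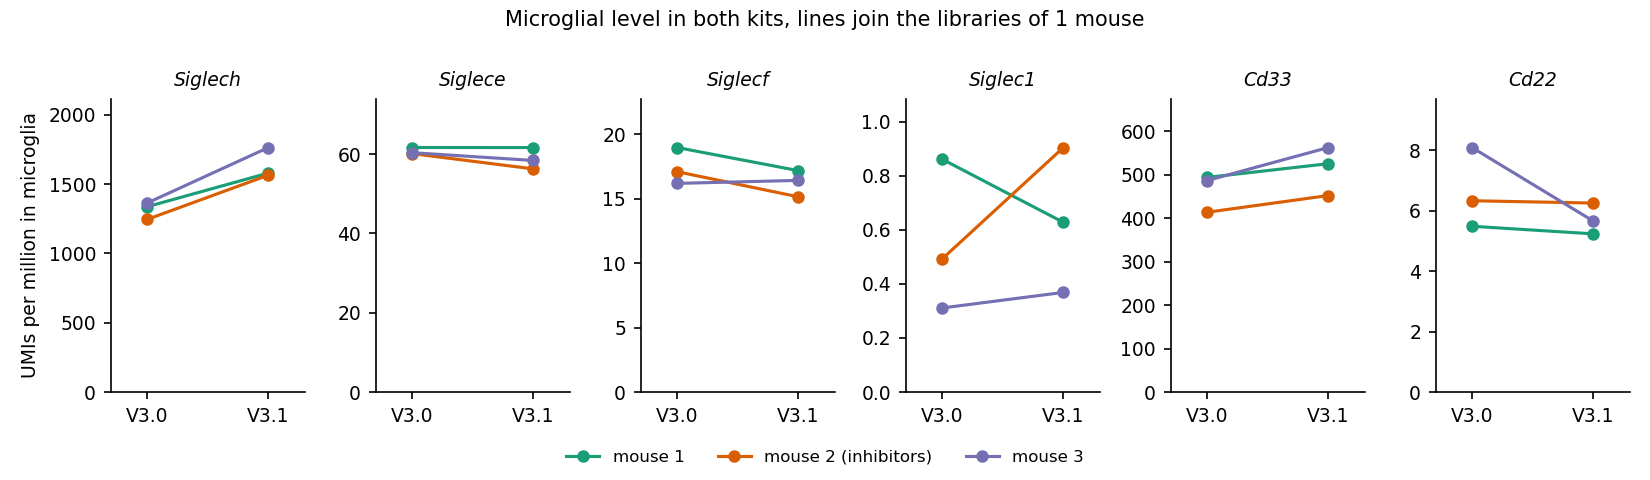
Level of each gene in the microglia of each library in CPM, with V3.0 on the left and V3.1 on the right of each panel and a line joining the libraries of 1 mouse. Each panel has its own axis from 0. *Siglech* was higher with V3.1 than with V3.0 in each of the 3 mice, and mouse 2, processed with inhibitors, has the lowest *Cd33* in both kits.

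The inhibitor cocktail was compared over sums per mouse, 1 mouse against 2. The spread came from the pair without inhibitors and that of the inhibitor mouse was assumed to be alike, so the test sets 1 animal against the others and says nothing of inhibitors in general. None of the 6 genes was called by edgeR (0.334% of 13184 genes were called higher and 0.296% lower) or by DESeq2, and 1 had an unadjusted p below 0.05. That was *Cd33*, at 432 CPM with inhibitors and at 508 and 550 CPM without (log2 fold change −0.28 ± 0.10 SE, unadjusted p = 0.0087 and adjusted p = 0.33 by edgeR). Within kits its log2 fold change was −0.22 with V3.0 and −0.26 with V3.1, with adjusted p-values of 0.48 and 1.00. *Siglech* stood at 1392 CPM with inhibitors and at 1441 and 1698 CPM without (log2 fold change −0.16 ± 0.10 SE, adjusted p = 0.84). *Siglece* was at 58.3 CPM against 61.6 and 58.7 CPM, and *Siglecf* at 16.2 against 18.2 and 16.4 CPM. A difference between this mouse and the others cannot be told apart from the inhibitors.

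Partners of the Siglecs were read from a list of 20 genes, other family members, adaptors and signaling enzymes. None of the 19 tested was called between kits or with inhibitors by edgeR or by DESeq2. In border macrophages against microglia 3 of 16 were called, all lower: *Inpp5d* (SHIP1, log2 fold change −1.29), *Lyn*, a kinase that phosphorylates Siglec tails (−1.29), and *Grb2* (−1.18), with adjusted p-values by edgeR of 0.00017, 0.00025 and 0.038 (5.06% of all genes were called lower). *Grb2* was not called by DESeq2 (adjusted p = 0.13) or with RLE normalization in edgeR (adjusted p = 0.071). The list's median log2 fold change was −1.12 beside −0.35 over all genes. *Tyrobp*, the DAP12 adaptor of Siglec-H, stood at 2744, 2924 and 2928 CPM in microglia, border macrophages and neutrophils, although the normalized fit called it higher in neutrophils than in microglia (log2 fold change 1.53). In neutrophils against microglia 10 of 16 were called higher and 3 lower (29.5% and 32.4% of all genes), but with sums scaled to their totals only it was 2 higher and 6 lower, and by DESeq2 11 higher and 1 lower. The 6 with the largest changes were *Fgr*, a Src-family kinase (log2 fold change 7.08), *Hcst*, the DAP10 adaptor (4.61), *Src* (−1.91), *Mag*, the myelin Siglec (−1.91), *Syk* (1.89) and *Ptpn6*, which encodes SHP-1 (1.57). These kept their sign with sums scaled to their totals only, but *Ptpn6* (0.10, adjusted p = 0.45) and *Syk* (0.42, under the fold threshold) were no longer called, and by DESeq2 *Src* and *Mag* were not (adjusted p = 0.090 and 0.075). In border macrophages against neutrophils 11 of 16 were lower (20.5% of all genes), among them *Fgr*, *Hcst*, *Ptpn11*, *Syk* and *Grb2* (log2 fold changes −5.55 to −2.42), or 2 higher and 4 lower with sums scaled to their totals only and 9 lower by DESeq2. *Ptpn11* was called in neither of these (adjusted p = 0.27 and 0.077). *Fgr* stood at 144 CPM in neutrophils, 2.82 CPM in microglia and 7.52 CPM, on 1 UMI, in border macrophages. It would not have passed the filter on low counts without the neutrophil sums, where it is high. Its place among the called genes of both neutrophil comparisons is therefore no support.

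The ligands were read from 34 genes of sialic acid synthesis, transfer and removal. None of the 24 tested was called between kits or with inhibitors by edgeR or by DESeq2. In border macrophages against microglia 3 of 20 were called higher (5.4% of all genes), *Cmah*, which makes the N-glycolyl form of sialic acid (log2 fold change 4.58, adjusted p = 7.40e-08), *St3gal1* (3.83, on 4 UMIs, adjusted p = 0.032) and *St8sia4*, a polysialyltransferase (2.69, adjusted p = 1.16e-08), and 2 were lower by edgeR (5.06%). These were *St3gal6* (−1.61, adjusted p = 1.41e-05) and *St3gal5*, the GM3 ganglioside synthase, which had no UMI in border macrophages against 140 CPM in microglia and was at least 6.21-fold lower against the limit of 3 UMIs over the group. *St3gal1* stood at 30.1 CPM in border macrophages, 2.18 CPM in microglia and 6.86 CPM in neutrophils. It would not have passed the filter on low counts without the border macrophage sums, where it is high, so its place among the called genes is no support. *Cmah* stood at 90.2 CPM in border macrophages, on 12 UMIs, 30.1 CPM in neutrophils and 4.03 CPM in microglia. Its microglial sums would not have passed that filter. Its place among the genes called against microglia, in border macrophages or in neutrophils, is therefore no support either. Neutrophils were higher than microglia in 6 of 20 and lower in 8 (29.5% and 32.4% of all genes), or 3 and 14 with sums scaled to their totals only and 6 and 6 by DESeq2. The 6 largest were *Cmah* (4.33), *St6gal1* (−4.21), *St3gal1* (3.07), *Npl*, the sialic acid lyase (−2.77), *St3gal4* (2.44) and *Siae*, a sialic acid esterase (−1.97, all log2 fold changes), which kept their sign under both, though *Siae* was not called by DESeq2 (adjusted p = 0.053). *St3gal4*, at 11.5 CPM in microglia and 22.7 CPM in neutrophils, would not have passed the filter on its microglial sums either. Border macrophages were higher than neutrophils in *St6gal1*, *Npl* and *St8sia4* and lower in *St3gal5*, 3 higher and 1 lower of 20 (9.91% and 20.5% of all genes), or 9 and 1 with sums scaled to their totals only. In interferon-gated microglia 1 of 24 was called, where 2.25% of all genes were called higher. It was *St8sia1*, the GD3 ganglioside synthase, higher on 10 UMIs (log2 fold change 2.73, adjusted p = 0.019).

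Likeness was measured as Pearson's r of log2(CPM + 1) over the 9 sums per mouse and type, which share libraries and rest mainly on the 3 types, among 10432 genes. *Siglech* was most like *Cst3*, *Dock10* and *Arpc5l* (r = 0.99 for each). *Cd33* was most like *Kif21b* (0.99), *Arid3b* and Gm38843 (0.97 each), and *Siglece* like *Rab21* (0.97), *Gk* (0.96) and *Supt4a* (0.95). *Siglecf* was most like *Ccdc61*, *Med24* and *Fbxo45*, *Siglec1* like *Kbtbd11*, Gm20429 and *Iigp1*, and *Cd22* like *Epop*, *Zfp965* and *Haus5*, with r from 0.99 to 1.00. For these last 3 members several of the 9 sums are at or near 0.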

How the data were processed

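The authors deposited unnormalized UMI counts per gene and barcode for 6 libraries, made with Cell Ranger 5.0.0 on GRCm38 (mm10), per the submitters' processing notes. Total counts were 6275898 to 18872816 UMIs per library. Barcodes were kept as cells where 1000 to 4000 genes were detected, the total did not exceed 12000 UMIs and mitochondrial genes took no more than 15% of it. A cell was gated to a type when at least 3 of its markers and 5 marker UMIs were present at 3 times those of every other list, which also served against doublets, as no doublet caller was run. The cells of a type were summed per library for the kit comparison and per mouse for the others, and tested with edgeR 4.0.16 (limma 3.58.1, R 4.3.3; filterByExpr, TMM, quasi-likelihood, 2-sided, Benjamini-Hochberg over all genes tested). The mouse was a covariate between cell types, which came from the same animals. DESeq2 1.42.0 was an alternative. Sums, shares and figures were made with pandas 2.3.3, numpy 2.4.6 and scipy 1.17.1 under Python 3.11.15.

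All 6 genes were named in each comparison, and of the 2 lists at most the 6 called genes with the largest log2 fold change. Some results on single genes of the lists are not reported here. Members and lists were chosen with earlier results of these data known. The 2 libraries of a mouse came from the same animal, and their deviations from the kit means correlated at 0.351, 0.524 and 0.164 over the 500 most variable genes. Shares carry exact Clopper-Pearson 95% intervals that cover counting error only, and were repeated after thinning to 2000 UMIs per cell (seed 1). In data simulated from these sums, 2-fold changes (100 genes) were recovered in 94% of cases for the kit comparison and in 11% for border macrophages against microglia. The simulation gave all genes the same spread beyond counting error and no difference between mice. These rates therefore need not hold for a sparse gene such as *Siglec1*. Promoters are RefSeq sequences on GRCm38.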

Additional observations from a re-analysis of the deposited data

Results flagged for a closer look

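*Siglecf* in neutrophils stood apart in 1 library, the V3.1 library of mouse 3, where 5.08% of cells (3 of 59) had a UMI after thinning to 2000 UMIs. It was the 1 of 20 groups of 6 libraries past Dixon's critical value at the 95% level, and chance gives about 1 in 20.

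Several genes were measured in cells that no comparison used. In the 475 cells of no gated type *Siglec1* stood at 5.98 CPM, from 11 UMIs in 7 cells, *Siglech* at 551 CPM and *Cd33* at 252 CPM, all above the 1.63 CPM that 3 UMIs would give. In the 73 monocytes *Cd33* stood at 48.6 CPM and *Siglece* at 20.1 CPM, above a limit of 5.02 CPM.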

How the results depend on the processing

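Of the fold changes of single genes under the alternatives, 365 kept their direction and side of the threshold, 6 no longer passed, 2 newly passed, 12 turned sign and 2, of *Siglech* with inhibitors, moved with no test (−0.28 without mouse 1 and −0.0089 without mouse 3). Fits in which a gene was too sparse to be tested are not counted. In each border macrophage comparison *Siglec1* was tested in 9 of 13 alternatives. It was too sparse without mouse 1, without mouse 2, without the block by mouse and with sums per library. The sign turned in 1 called result: *Cd33* in neutrophils against microglia was at −0.30 with sums scaled to their totals only, a setting added after the data were seen. The other turns were in genes that had not passed. With a stricter gate *Siglece* was at 0.027 between kits, *Siglecf* at 0.0059 and *Siglec1* at −0.012 with inhibitors, and *Siglece* at 0.018 and *Siglecf* at 0.20 in interferon-gated microglia. *Siglec1* was at −0.55 with inhibitors in V3.0 libraries only and at 0.47 in neutrophils against microglia by DESeq2. Leaving out 1 mouse at a time gave *Siglece* −0.093 to 0.95 in border macrophages against microglia and −0.22 to 0.026 in interferon-gated microglia, and *Siglecf* −1.13 to 0.25 there. The cause was not tested.

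Leaving out 1 mouse, the number of members called ranged from 1 to 3 in border macrophages against microglia and against neutrophils (3 with all mice), and was 0 without any 1 mouse for interferon-gated microglia (1 with all). Without the replicate block by mouse, 2 members were called in each of the border macrophage comparisons and 3 in neutrophils against microglia. With the block the number of members called between kits stayed 0, and all genes called rose from 369 to 587. The stricter gate left 2 border macrophages and was not run for them.

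Genes called between kits fell to 193 and 145 without mice 1 and 2. With inhibitors, 83 genes were called, against 14 by DESeq2, 132 with no filter and 56 to 117 under the other alternatives that keep all 3 mice. Without mouse 1 or mouse 3 no spread is left, no test could be made and no gene was called. Border macrophages against microglia gave 872, or 536 and 450 without mice 1 and 2, and against neutrophils 2534, or 1555 without mouse 2. Sums scaled to their totals changed the split of higher and lower calls from 2462 and 2700 to 985 and 6138 in neutrophils against microglia, and from 826 and 1708 to 2231 and 541 in border macrophages against neutrophils. By DESeq2 the splits were 2542 and 1815 in neutrophils against microglia, 929 and 209 in border macrophages against microglia (450 and 422 by edgeR), and 243 and 2 in interferon-gated microglia (269 and 41 by edgeR). Depth limits what can be said of *Siglec1* and *Cd22*, and the 30 border macrophages hold 83 Siglec UMIs in all.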
